A study of Mus musculus with 6 samples.

Results

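Integrins, laminins and cadherins are the proteins by which a muscle cell holds to its matrix and to its neighbours, and their transcripts were followed here in C2C12 myotubes given the saturated fatty acid palmitate. Members were all probe sets of the array whose single gene symbol belonged to the integrin chains (Itga, Itgb), the laminin chains (Lama, Lamb, Lamc), the numbered cadherins (Cdh) or the protocadherins (Pcdh), with the 5 probe sets of integrin-binding partners (Itgb1bp1, Itgb1bp2, Itgb3bp) left out. The rule used names and no measured value. It gave 117 probe sets of 80 genes, out of 22626 probe sets and 12393 singly named genes on the array: 23 integrin genes (Itgbl1, which encodes an integrin-like protein, among them), 10 laminin, 17 cadherin and 30 protocadherin genes. A further 6 probe sets were annotated to several protocadherin genes of the alpha cluster at a time and were not used.

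C2C12 is an established mouse myoblast line that fuses into myotubes when serum is lowered. Cells were expanded in 20% fetal bovine serum and differentiated for 5 days in 2% horse serum. The control group (3 arrays) then received 1% bovine serum albumin (BSA) for 16 h, and the other group (3 arrays) received 500 µM palmitate for 16 h. Palmitate was supplied bound to fatty acid-free BSA, so both groups were exposed to albumin, and neither carried a genetic change. No albumin percentage was available here for the palmitate group, so equal amounts cannot be assumed. All arrays come from 1 cell line. Nothing says that the replicates were separate cultures, and the p-values here speak only to how far these 6 arrays differed, part of which may be technical.

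An integrin is a pair of an alpha and a beta chain that spans the membrane, binds matrix outside the cell and couples to actin inside it. Laminins are trimers of an alpha, a beta and a gamma chain and form the scaffold of the basement membrane that wraps each muscle fibre, where integrin alpha 7 beta 1 and dystroglycan bind them. Classical cadherins join like cells through calcium-dependent contacts and hold catenins on the inner side, and N-cadherin and M-cadherin are known from myoblast contact and fusion. Protocadherins share the cadherin repeats without the catenin-binding tail of the classical members.

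Each probe set has a signal intensity on a linear scale. A probe set was called dim when its mean log2 signal over the 6 arrays lay at or below the 40th percentile (a signal of 267.1), and dim probe sets were not tested. The other 13575 were compared between palmitate and BSA with limma on log2 signals, and a probe set passed at a Benjamini-Hochberg adjusted p under 0.05. A gene was represented by its brightest probe set. Values written as a ± b beside a gene are log2 fold changes, palmitate over BSA, with the SE from limma and n = 3 arrays per group, and every adjusted p below is limma's.

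Of the 80 genes, 23 were above the filter: 8 integrins, 6 laminins, 4 cadherins and 5 protocadherins. Of these 23, palmitate-treated myotubes had lower transcripts of Itgb5, Itgav, Lamb1 and Pcdh18 and higher transcripts of Itga5, and the other 18 did not pass the test. The 4 falls (17.4% of the 23) and the 1 rise stand beside a background of 12.3% of all 7931 genes tested falling and 7.92% rising, so the share of called genes was near that of the array as a whole (21.7% against 20.2%). Without BSA replicate 3, palmitate replicate 2 or palmitate replicate 3 the count was 2 falls and 0 rises, and without BSA replicate 2 it was 3 falls and 0 rises. The median log2 fold change of the 23 was -0.31, beside -0.051 for all genes tested; 2 of the 23, Pcdhb17 and Pcdhb20, were above the filter through their BSA signals alone. All 3 palmitate arrays lay below all 3 BSA arrays for 6 of the 23 genes and above them for 2, where 22.4% and 15.9% of all genes did so. Counted as probe sets, 36 of the 117 were above the filter, of which 8 fell and 2 rose (10.6% and 8.63% of all probe sets tested).

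**Figure D1:**
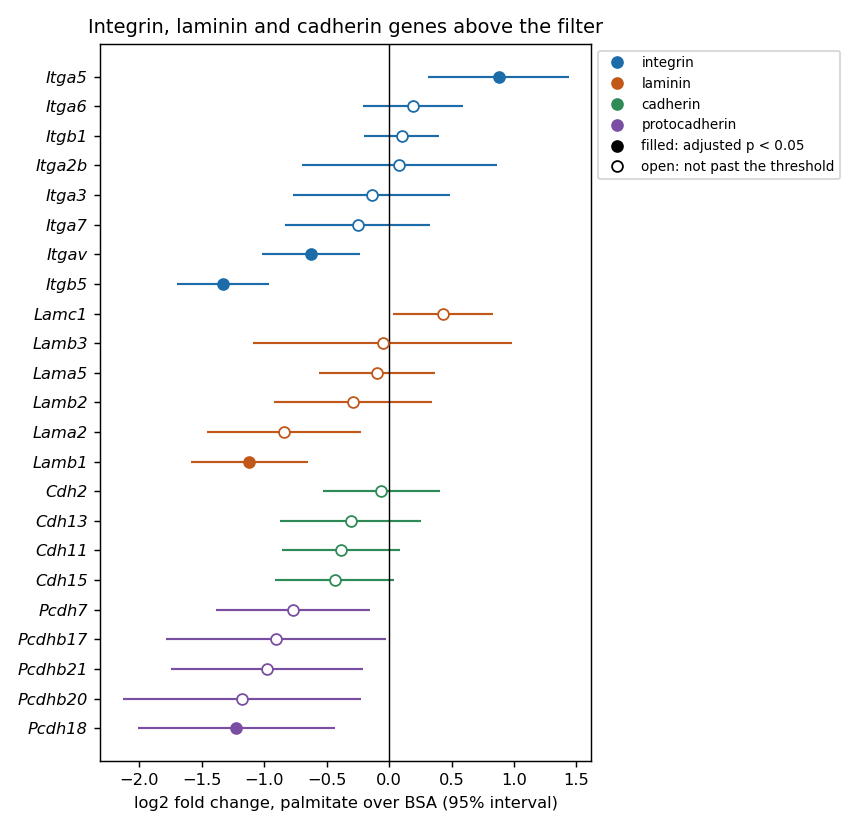
Log2 fold change, palmitate over BSA, of the 23 genes above the filter (x axis, with limma's 95% interval as the bar), grouped by family in colour. Filled points passed at an adjusted p under 0.05: Itga5 lies right of 0, and Itgav, Itgb5, Lamb1 and Pcdh18 lie left of it.

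The table of start-site sequences held 35 of the 80 genes, and all 5 that passed the test. The 250 bases before the start are shown for the 2 genes with the firmest falls, Itgb5 and Lamb1, and for the only one that rose, Itga5, so that the sequence in front of genes that moved in opposite directions can be set side by side. They come from RefSeq on mouse assembly GRCm38.p6, at chr16:33829415-33829664 (plus strand) for Itgb5, chr12:31265043-31265292 (plus strand) for Lamb1 and chr15:103366792-103367041 (minus strand) for Itga5, each read 5′ to 3′ along its gene. Capitals mark a GC box (GGGCGG on either strand) or a CCAAT box (CCAAT on either strand).
Itgb5: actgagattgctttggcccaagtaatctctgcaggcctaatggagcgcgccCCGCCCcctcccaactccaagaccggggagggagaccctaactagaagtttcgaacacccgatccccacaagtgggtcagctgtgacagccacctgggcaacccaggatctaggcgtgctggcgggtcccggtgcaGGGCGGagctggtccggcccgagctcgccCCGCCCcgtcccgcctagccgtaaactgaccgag
Lamb1: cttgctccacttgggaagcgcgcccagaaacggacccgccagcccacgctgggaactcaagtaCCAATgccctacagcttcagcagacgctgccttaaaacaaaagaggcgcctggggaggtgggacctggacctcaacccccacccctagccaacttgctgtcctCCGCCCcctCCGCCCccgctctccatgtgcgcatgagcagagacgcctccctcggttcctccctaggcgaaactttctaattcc
Itga5: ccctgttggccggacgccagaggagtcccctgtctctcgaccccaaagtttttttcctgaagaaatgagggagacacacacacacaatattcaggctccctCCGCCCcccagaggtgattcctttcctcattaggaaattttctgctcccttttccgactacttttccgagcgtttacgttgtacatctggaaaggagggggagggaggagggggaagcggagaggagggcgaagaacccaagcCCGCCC

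Itgb5 held 3 GC boxes in this window, Lamb1 held 2 and 1 CCAAT box, and Itga5 held 2 GC boxes. GC boxes were thus in front of genes of both directions, and 32.7% of all 32851 windows of this length hold at least 1, while 33.8% hold a CCAAT box. The TATA box (TATAAA, in 12.4% of all windows), the AP-1 site (TGANTCA, 6.75%), the E-box CACGTG (6.02%), the cAMP response element (TGACGTNA, 2.52%), the TEAD site (GGAATG, 12.6%) and the ETS site (CCGGAAGT, 2.88%) had no match in the 3 windows on either strand. The window of Pcdh18 held 1 GC box and 1 CCAAT box, and that of Itgav held none of the motifs. The GC content was 65.2% for Itgb5, 62.0% for Lamb1 and 55.6% for Itga5, beside a median of 52.4% over all windows.

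Among integrin beta chains, Itgb5, whose product pairs with alpha v to bind vitronectin, fell clearly. Its signals were 9189.8, 7569.3 and 6161.9 on the BSA arrays and 3032.1, 3143.2 and 2833.3 on the palmitate arrays. Every palmitate array was below every BSA array, and the palmitate arrays lay close together. The group means were 7640.3 ± 1515 and 3002.9 ± 157.0 (SD, n = 3), a 2.51-fold fall (-1.33 ± 0.17, limma adjusted p = 0.000227). The other 3 probe sets of Itgb5 gave -1.60 ± 0.20, -1.55 ± 0.17 and -1.59 ± 0.19, and each passed (adjusted p between 0.000105 and 0.000244). All 4 probe sets also passed under each of the 14 alternative settings tried for single probe sets, over a range of log2 fold changes from -1.93 to -1.19.

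Itgb1, the beta chain shared by most matrix-binding integrins of muscle, did not pass. Its signals were 6806.2, 7015.3 and 6315.1 with BSA and 6814.2, 6847.3 and 7960.0 with palmitate, and the groups overlapped. The log2 fold change was 0.10 ± 0.14 (adjusted p = 0.66), with a 95% interval from -0.20 to 0.40. The 2 other probe sets of Itgb1 above the filter were at 0.16 ± 0.15 and 0.21 ± 0.23, and 3 more were dim. The sign for Itgb1 turned when arrays were scaled to the hybridisation controls (-0.23). Itgb3, the other well-known partner of alpha v, was dim throughout, with signals from 27.2 to 39.7 with BSA and from 13.3 to 44.6 with palmitate.

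Alpha chains moved in both directions. Itga5, which joins beta 1 to form the main fibronectin receptor, had signals of 2162.4, 1070.8 and 1233.2 with BSA and 2165.5, 3226.4 and 2532.3 with palmitate. The groups did not overlap, but BSA replicate 1 and palmitate replicate 1 were nearly equal. Itga5 rose 1.84-fold (0.88 ± 0.26, adjusted p = 0.0333), and its second probe set rose 2.80-fold, from 333.3, 242.9 and 376.9 to 608.3, 1228.9 and 895.5 (1.49 ± 0.33, adjusted p = 0.0088). The second probe set passed in each of the 13 alternative settings that kept it (adjusted p up to 0.0401). The brighter one lost its call without BSA replicate 2 (adjusted p = 0.141), BSA replicate 3 (0.101), palmitate replicate 2 (0.101) or palmitate replicate 3 (0.0737), with the variance shrunk without an intensity trend (0.0852) and with hybridisation control scaling (0.54, adjusted p = 0.158).

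Itgav, the alpha v chain of vitronectin receptors, had signals of 5697.4, 7623.2 and 8452.3 with BSA and 5191.6, 3855.1 and 4994.6 with palmitate. All palmitate arrays were lower, with palmitate replicate 1 not far below BSA replicate 1. The change was -0.63 ± 0.18 (adjusted p = 0.0313). The call was lost without BSA replicate 2 (adjusted p = 0.116), BSA replicate 3 (0.119), palmitate replicate 2 (0.0958) or palmitate replicate 3 (0.056) and without the intensity trend (0.0911). A second, much dimmer Itgav probe set was at 0.25 ± 0.42, and averaging both left -0.19 (adjusted p = 0.575).

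The integrin alpha chains of the laminin receptors did not pass. Dystroglycan (Dag1), which also binds laminin, is counted with the partner genes below and fell (-0.60 ± 0.18, adjusted p = 0.0404). Its signals were 8973.2, 6519.5 and 5622.9 with BSA and 3992.5, 4937.6 and 4840.9 with palmitate. Whether the call of Dag1 held in the alternative settings was not followed. Itga7, the alpha chain of the main laminin receptor of differentiated muscle, was at -0.25 ± 0.27 (adjusted p = 0.559). Its signals were 10433.8, 4732.8 and 4556.9 with BSA and 4630.5, 5742.3 and 5024.6 with palmitate, so that BSA replicate 1 stood far above the other 5 arrays, and without it the value was 0.14. Itga6, another laminin-binding chain, was at 0.19 ± 0.18 on its brighter probe set and 0.075 ± 0.24 on the other. Itga3, a laminin-binding chain as well, was at -0.14 ± 0.29, and Itga2b, known as the alpha chain of the platelet fibrinogen receptor, was at 0.081 ± 0.36.

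**Figure D2:**
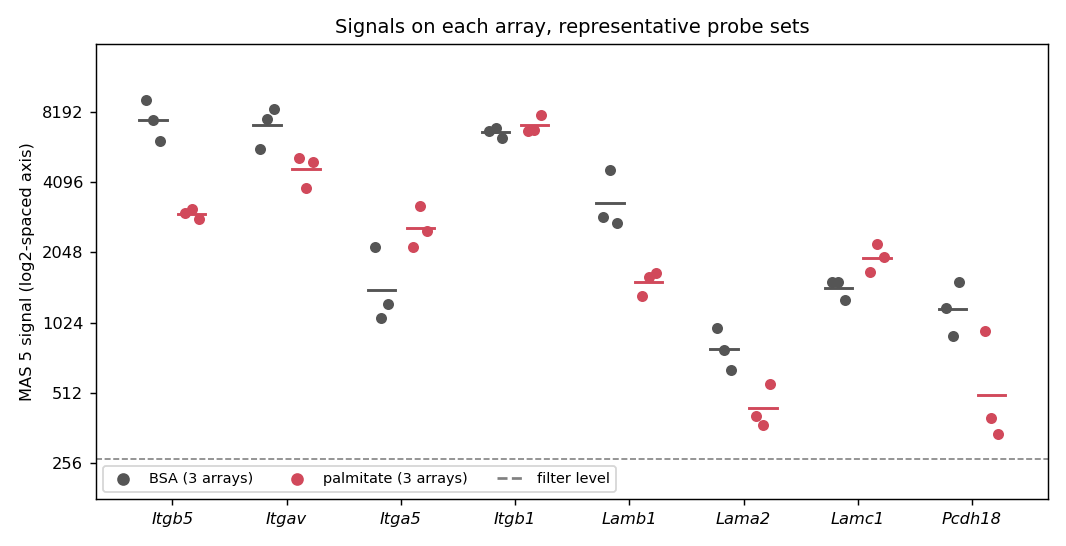
Signal on each array (y axis, spaced in log2) of the representative probe sets of 8 genes, BSA in grey and palmitate in red, with bars at the mean log2 signal and the filter level dashed. The groups are apart for Itgb5, Itgav, Itga5, Lamb1, Lama2 and Lamc1 and overlap for Itgb1 and Pcdh18; levels are not comparable between genes.

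Scaling of whole arrays moves all genes on an array together, so the gap between a pair of genes does not depend on it. Taken as the first gene less the second, the gap of Itga5 to Itgb5 was 2.21 log2 units higher with palmitate than with BSA. That of Itga5 to Itgav was 1.50 higher, and that of Itgb1 to Itgb5 was 1.43 higher. These are shifts of 1 gene relative to another and not wider distances. For Itga5 with Itgb5 or Itgav the gaps could not overlap between groups, since each gene alone was already apart, in opposite directions. Non-overlap of those gaps therefore adds nothing to the single-gene values. The gaps of Itgb1 to Itgb5 did not overlap either. These pairs were chosen after their values were seen and were not tested.

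Of the laminin chains, Lamb1 fell, and its partner chains did not pass. Lamb1 encodes the beta 1 chain, a part of the laminins of embryonic and adult muscle. Its signals were 2916.9, 4613.0 and 2726.9 with BSA and 1327.8, 1609.9 and 1674.4 with palmitate. Every palmitate array was below every BSA array, and BSA replicate 2 was the highest. Lamb1 fell 2.17-fold, from 3418.9 ± 1038 to 1537.4 ± 184.3 (SD, n = 3; -1.12 ± 0.22, limma adjusted p = 0.00377), and a second probe set gave -1.10 ± 0.26 (adjusted p = 0.0114). The third, the dimmest of them, was at -0.37 ± 0.27 (adjusted p = 0.379) with overlapping groups. The brightest passed in all 14 alternative settings, and the second in 13 of 14, the exception being without BSA replicate 2 (adjusted p = 0.0626).

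Lama2, the alpha 2 chain of adult muscle laminin whose loss causes congenital muscular dystrophy, was lower on each palmitate array and did not pass. Its signals were 975.3, 782.3 and 644.2 with BSA and 408.4, 373.6 and 561.2 with palmitate (-0.84 ± 0.28, adjusted p = 0.0581). It passed with hybridisation control scaling (-1.17, adjusted p = 0.0111), without the intensity trend (adjusted p = 0.0481) and with probe sets of a gene averaged (adjusted p = 0.0423). Lamc1, the gamma 1 chain common to most laminins, had signals of 1522.8, 1534.8 and 1285.0 with BSA and 1688.0, 2219.6 and 1956.3 with palmitate. All its palmitate arrays were higher, but the change of 0.43 ± 0.18 did not pass (adjusted p = 0.128). Lamc1 less Lamb1 was 1.55 log2 units higher with palmitate than with BSA, again a pair chosen after its values were seen. Its gaps could not overlap between groups, since Lamc1 was higher and Lamb1 lower on every palmitate array.

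The remaining laminin chains above the filter were Lama5 (-0.096 ± 0.21), the alpha chain of many adult basement membranes, Lamb2 (-0.29 ± 0.29), the beta chain enriched at the neuromuscular junction, and Lamb3 (-0.051 ± 0.48), a chain of epithelial laminin. Their groups overlapped and none passed. Lama1, Lama3, Lama4 and Lamc3 were dim. Among them, Lama1 had signals of 295.6, 204.3 and 268.0 with BSA and 10.6, 223.7 and 27.3 with palmitate, of which palmitate replicate 2 lay in the range of the BSA arrays.

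**Figure D3:**
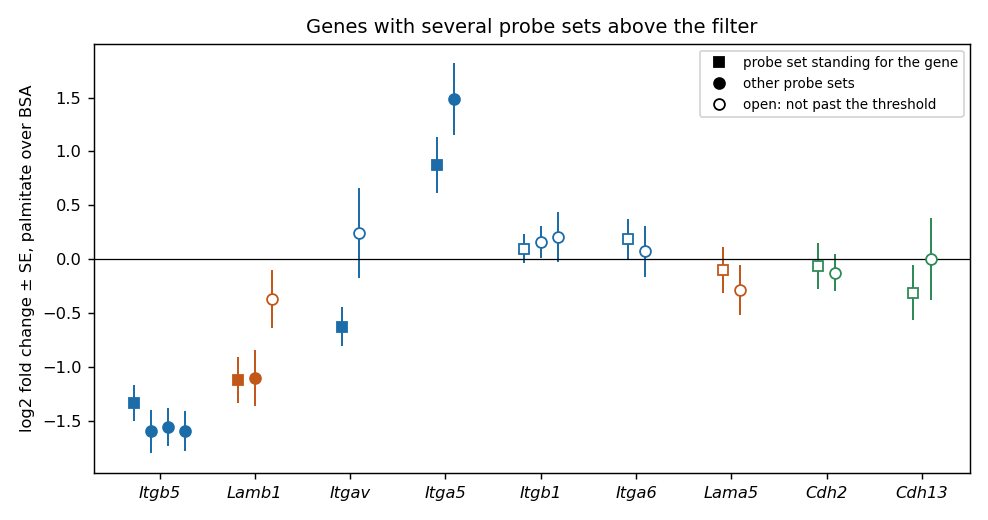
Log2 fold change ± SE (y axis) of each probe set above the filter for 9 genes with several of them, squares standing for the gene and filled symbols past the threshold. All 4 probe sets of Itgb5 and both of Itga5 passed, as did 2 of 3 for Lamb1 and 1 of 2 for Itgav.

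Of the 4 classical and related cadherins above the filter, 0 passed with limma and 0 had an unadjusted p under 0.05. All 4 had lower mean log2 signals with palmitate, at a median of -0.35, and every one had overlapping groups. Cdh15, which encodes M-cadherin of myoblasts and satellite cells, had signals of 3764.1, 2399.4 and 2237.3 with BSA and 1711.9, 1988.7 and 2392.1 with palmitate (-0.44 ± 0.22, adjusted p = 0.194). Cdh11, of mesenchymal cells, was at -0.39 ± 0.22 (adjusted p = 0.243). Its lowest BSA array, replicate 1 at 4667.4, lay within the palmitate arrays (6291.8, 4323.5 and 4560.9), and without it Cdh11 passed (-0.63, adjusted p = 0.0357). Cdh11 and Cdh15 also passed with hybridisation control scaling (-0.72, adjusted p = 0.0255, and -0.77, adjusted p = 0.0232).

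Cdh2, which encodes N-cadherin, was at -0.064 ± 0.21 on its brighter probe set (95% interval from -0.53 to 0.40) and -0.12 ± 0.17 on the other. Palmitate replicate 2 was its lowest array (3558.7, against 6244.0 and 6194.2 on the other palmitate arrays and 4670.0 to 6124.1 with BSA), and without it the value was 0.20. Cdh13, a cadherin held by a lipid anchor and lacking a cytoplasmic tail, was at -0.31 ± 0.26 on its brightest probe set and 0.00099 ± 0.38 on a dimmer one. The epithelial Cdh1 and the endothelial Cdh5 were among the 13 dim cadherins.

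Of the 5 protocadherins above the filter, Pcdh18 alone passed. Its signals were 1183.6, 894.1 and 1531.1 with BSA and 938.7, 398.3 and 340.9 with palmitate (-1.22 ± 0.36, adjusted p = 0.0341). The groups overlapped, since palmitate replicate 1 exceeded BSA replicate 2. The call for Pcdh18 was lost without BSA replicate 1 (adjusted p = 0.0731), BSA replicate 3 (0.118), palmitate replicate 2 (0.0875) or palmitate replicate 3 (0.115), with no filter (0.0629) and without the intensity trend (0.077).

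Pcdh7, a protocadherin outside the gene clusters, had narrow BSA signals of 668.9, 635.6 and 671.8 and palmitate signals of 325.8, 377.7 and 470.0. Its groups did not overlap, and it did not pass (-0.77 ± 0.28, adjusted p = 0.079). The beta cluster holds many neighbouring protocadherin genes of similar sequence, which a probe set may not tell apart. Of its 22 genes on the array, 3 were above the filter and 0 passed with limma (3 at an unadjusted p under 0.05). Pcdhb21 was at -0.98 ± 0.35, Pcdhb20 at -1.18 ± 0.44 and Pcdhb17 at -0.91 ± 0.40. For Pcdhb17 and Pcdhb20 the palmitate mean lay below the filter level, so both were kept through their BSA signals, which favours a fall, and the direction and unadjusted count of the beta cluster are a description only. With hybridisation control scaling Pcdh7, Pcdhb17, Pcdhb20 and Pcdhb21 passed as well as Pcdh18. Without the intensity trend Pcdh7 (adjusted p = 0.032) and Pcdhb20 (0.0377) passed, as did Pcdhb21 without palmitate replicate 1 (0.0446). Neither Pcdh7 nor any of the 3 beta cluster genes passed in more than 2 of 13 alternative settings.

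**Figure D4:**
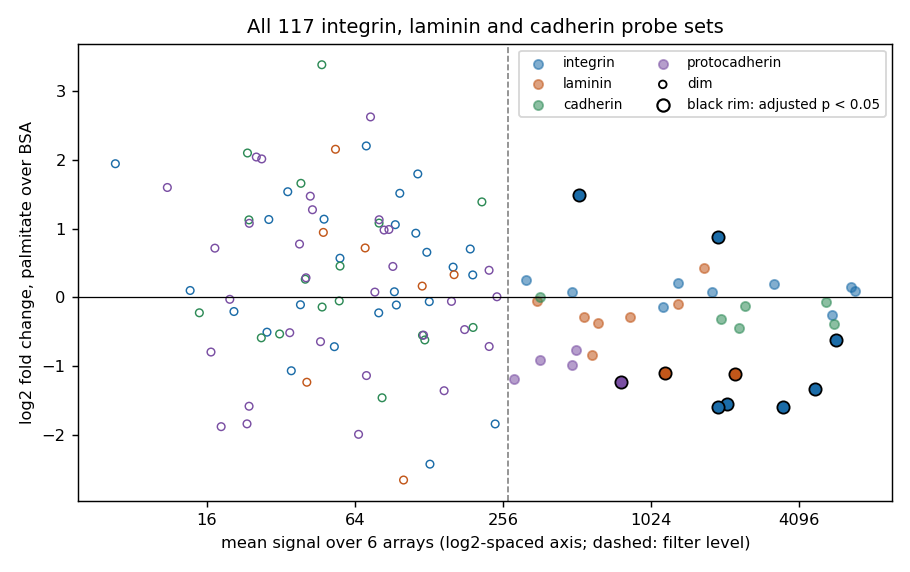
Mean signal over 6 arrays (x axis, spaced in log2) against log2 fold change (y axis) for all 117 probe sets, coloured by family, open where dim, with a black rim where past the threshold. The 81 dim probe sets left of the dashed filter level scatter widely on both sides of 0, and the 10 that passed lie to its right.

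Dim members were 81 probe sets, and 57 genes had no other kind. Among these genes were the leukocyte chains Itgal, Itgam, Itgax and Itgb2, the alpha chains Itga2, Itga4, Itga8 and Itga9, the epithelial chains Itgb4 and Itgb6 and 25 protocadherins. Over the 81 probe sets, single-array signals ran from 2.1 to 697, and the groups did not overlap for 10, with palmitate above in 6 and below in 4 (8.19% and 5.08% of all probe sets under the filter). The total share (12.3%) is near the 13.3% of all 9051 such probe sets. Detection calls were not used here, so it is not known which of the dim signals rose above background, and no fold is given for them. Examples with palmitate above are Pcdhb5, with signals of 17.4, 26.2 and 57.8 with BSA and 179.6, 143.2 and 241.4 with palmitate, and Cdh6, with 225.9, 81.1 and 118.9 against 489.4, 340.1 and 235.8. An example with palmitate below is a dim probe set of Itga3, with 275.0, 254.4 and 381.9 against 30.9, 36.6 and 152.7. The other dim probe set of Itga3 had overlapping groups. All these examples were named after their values were seen.

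Other adhesion genes, taken from a list of 52 partners, are given beside these families. The list was chosen with earlier results of these data known, so its shares of called genes are a description only. Of 14 measured genes of matrix ligands, basement membrane and matrix receptors, 7 fell and 1 rose (57.1% called, beside 20.2% of all genes tested), at a median of -0.44. The 4 with the smallest p all fell. They were the laminin-binding linker Nid2 (nidogen 2, -1.63 ± 0.18, adjusted p = 0.000107) and the proteoglycan Agrn (agrin, -1.28 ± 0.17). The others were the matrix ligand Fn1 (fibronectin, -0.86 ± 0.13), which alpha 5 beta 1 binds, and the syndecan Sdc2 (-0.83 ± 0.15). The other nidogen, Nid1, did not pass (-0.13 ± 0.14, adjusted p = 0.571), and its groups overlapped. The rise was that of the hyaluronan receptor Cd44 (0.51 ± 0.13, adjusted p = 0.0167), named because it was the only one; its call was lost without BSA replicate 2 (adjusted p = 0.0777) or palmitate replicate 1 (0.0803), without the intensity trend (0.0723) and with hybridisation control scaling (0.18, adjusted p = 0.49).

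Of 18 focal adhesion, integrin adaptor and integrin-binding genes, Parva (-0.85 ± 0.19, adjusted p = 0.00863) and Ilk (-0.59 ± 0.18, adjusted p = 0.036), which bind each other beneath integrins, fell and 0 rose (11.1% called, beside 20.2% of all genes tested). The 18 include Itgb3bp, also known as a centromere protein, which did not pass. The call of Ilk was lost without any single array other than BSA replicate 3 or palmitate replicate 3, at adjusted p up to 0.139, and with median scaling (0.0621) or without the intensity trend (0.09). Tns1 (-0.61 ± 0.21) and Fermt2 (-0.37 ± 0.14) did not pass, and Fermt2 was at 0.048 with its probe sets averaged. Of the 18, 7 had an unadjusted p under 0.05. Among these, Src (0.91 ± 0.35, adjusted p = 0.0882) and Tln1 (0.53 ± 0.23, adjusted p = 0.132) were higher with palmitate and did not pass. Of 8 adherens junction genes, 0 passed with limma and 2 had an unadjusted p under 0.05, the nectin Nectin3 (-0.52 ± 0.22) and the catenin Ctnna1 (-0.33 ± 0.14). Next by p were the scaffold Cask (-0.28 ± 0.19) and the p120 catenin Ctnnd1 (-0.32 ± 0.24). Ctnna1, Nectin3, Tns1 and Fermt2 passed with hybridisation control scaling.

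Some facts of the whole arrays bear on these values. The 8 measured myotube markers, myogenin (Myog) and the embryonic myosin Myh3 among them, did not pass in either direction, with summed signals of 100274.5 to 152043.7 with BSA and 113019.2 to 121112.5 with palmitate. Markers of dividing cells fell in 4 of 4 cases, their summed signal going from 21576.8 to 25623.9 with BSA down to 9820.4 to 10438.5 with palmitate, and of 5 measured myoblast markers Myod1 and Id3 fell and 0 rose (summed signals over all 6 on the list of 12041.1 to 12819.7 and 6761.1 to 8386.8). Of 4 fibroblast markers, Pdgfra alone was above the filter, through its BSA signals, since its palmitate mean lay below the filter level, and it fell (-1.67 ± 0.32); the list's summed signal was 1309.6 to 2247.5 with BSA and 469.1 to 756.8 with palmitate. The part of these cell-state markers in the changes of Itgb5, Lamb1, Itgav, Pcdh18 and Itga5 was not tested, and on whole cultures fewer cells of a type and less RNA per cell cannot be told apart. Of 5 endothelial markers all were dim, as were 4 of 6 leukocyte and 3 of 4 epithelial markers. Leukocyte markers summed to 814.4 to 1554.9 with BSA and 1780.5 to 1956.6 with palmitate, endothelial ones to 250.8 to 476.2 and 215.1 to 826.2, and epithelial ones to 801.3 to 875.1 and 887.5 to 1098.2.

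Direction also depends on how arrays are scaled. The hybridisation control RNAs were brighter with palmitate (mean log2 signal 13.04, 13.10 and 13.31, against 12.74, 12.97 and 12.73 with BSA), and after scaling to them the median over all tested probe sets was -0.34. On that scale 11.3% of all calls on the array were rises, against 44.9% as deposited, and of the 23 genes 11 fell and 0 rose. Itgb5, Lamb1, Itgav and Pcdh18 fell on either scale.

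**Figure D5:**
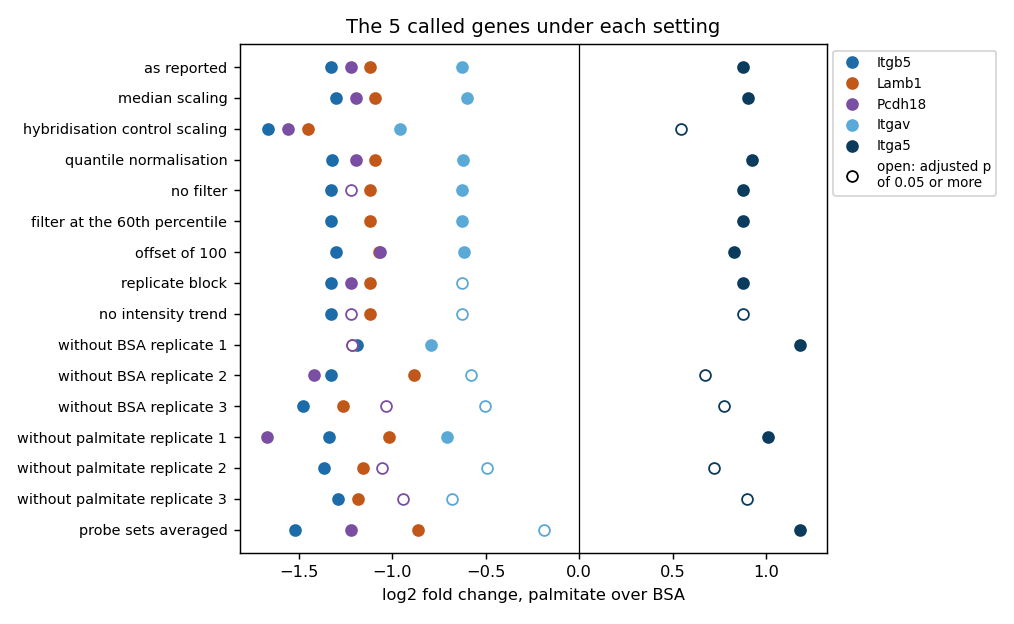
Log2 fold change (x axis) of the 5 genes that passed, under each processing setting (rows), open where the adjusted p was 0.05 or more. Itgb5 and Lamb1 are filled in every row, while Itga5, Itgav and Pcdh18 are open in several; Pcdh18 is absent at the 60th percentile filter, which removed it.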

How the data were processed

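Total RNA of 6 samples was biotin-labelled and hybridised to 1 Affymetrix mouse array each. Per the submitters' processing notes, the authors made the deposited values, signal intensities on a linear scale, with MAS5. Its settings were not stated in the sources used here. Every array had a 2% trimmed mean between 1500.5 and 1500.6, so signals had been brought to a common average, and a shift shared by most transcripts would not be seen.

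Of 22690 probe sets, 64 were controls. The platform annotation gave 20380 of the others 1 symbol, 691 several and 1555 none, and only the first kind were named. Symbols were checked by gene ID against RefSeq (20351 matched, 0 changed). Log2 signals were taken without offset, and probe sets whose mean exceeded the 40th percentile were kept. Two-sided comparisons of palmitate with BSA used lmFit and trended eBayes of limma 3.58.1 (R 4.3.3), and p-values were adjusted by Benjamini-Hochberg over all 13575 kept. Residual degrees of freedom were 4, with 7.98 added by variance sharing. Log2 fold changes had a median SE of 0.22, and precision is limited by the number of arrays. The code was tested on simulated data.

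Named were all genes of the 4 families above the filter, and up to 4 partner genes of each of 3 partner lists by smallest p. Cd44, Dag1, Nid1, Src, Tln1, Pcdhb5, Cdh6, Lama1, a dim Itga3 probe set and the markers named were added after their values were seen. The families and lists were chosen with earlier results of these data known. Alternatives were median, hybridisation control (9 probe sets) and quantile scaling, no filter or one at the 60th percentile, an offset of 100, averaged probe sets, a replicate block, no intensity trend and leaving out each array. Start-site windows and motifs were read from RefSeq sequences.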

Additional observations from a re-analysis of the deposited data

How the results depend on the processing

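Itgb5 and Lamb1 kept their direction and call in all 15 alternatives. Scaling to the hybridisation controls gave 0 genes of the 4 families higher and 11 lower, with 2 laminins, 2 cadherins and 5 protocadherins called and 17 partner genes called, against 1 higher, 4 lower, 1 laminin, 0 cadherins, 1 protocadherin and 10 partners as reported. It also turned the sign of Itga2b (-0.25), Itga6 (-0.14) and Itgb1 (-0.23), since it subtracts a single constant from all log2 fold changes. With no filter, and with the filter at the 60th percentile, 0 protocadherins were called, since Pcdh18 missed the threshold in the first and was removed by the second. Without the intensity trend 0 genes were higher, and 1 integrin, 2 laminins and 2 protocadherins were called. Averaging probe sets gave 2 laminins called and put Fermt2 at 0.048. The second laminin in these settings was Lama2, whose single probe set above the filter kept its log2 fold change of -0.84 without the trend and after averaging. With that value unchanged, only the shared variance estimate and the adjustment for multiple tests could move its adjusted p. Their separate shares were not tested.

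Leaving out 1 array at a time gave 1579 to 2315 probe sets called (2609 as reported), 0 to 1 genes of the 4 families higher and 2 to 5 lower. It gave 1 to 3 integrins, 1 laminin throughout, 0 to 1 cadherins, 0 to 2 protocadherins and 6 to 11 partner genes called. The lowest count of probe sets came without BSA replicate 2, and 1 integrin was called without BSA replicate 2, BSA replicate 3, palmitate replicate 2 or palmitate replicate 3. Signs turned only for genes that had not passed, where the log2 fold change ran from -0.20 to 0.20 for Cdh2, -0.14 to 0.43 for Itga2b, -0.46 to 0.10 for Itga3, -0.46 to 0.14 for Itga7, -0.25 to 0.048 for Lama5 and -0.39 to 0.34 for Lamb3.

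The replicate numbers did not pair the samples: deviations of same-numbered arrays from their group means correlated at -0.23, -0.13 and 0.0091. With the replicate number as a block, 1973 probe sets were called, with 1 gene of the families higher and 3 lower, 2 integrins and 7 partner genes called, and the adjusted p was 0.0562 for Itgav, 0.0782 for Ilk and 0.0642 for Cd44.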
